A study of Homo sapiens with 18 samples.

Results

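Cancer stem cell marker genes were followed in 2 triple-negative breast cancer cell lines, MDA-MB-231 and MDA-MB-468, exposed to the BET bromodomain inhibitor OTX015 (MK-8628). The 9 genes ALDH1A3, ALDH1A1, PROM1, CD24, ITGA6, KIT, BMI1, KLF4 and SOX2 were taken by name, with every bead array probe annotated to one of them, which gave 17 of the 47231 probes on the array. Cells were left untreated, given the DMSO vehicle or given OTX015 (75 nM for MDA-MB-231, 650 nM for MDA-MB-468), and their RNA was taken at 4, 8 and 24 h. There was 1 array for each cell line, treatment and time, 18 in all. Both lines are established lines from a cell bank, so each stands for 1 tumour, and they received different doses. Time points stood in for repeats, so a treatment has n = 3, and nothing in the sample descriptions says that they came from separate cultures, so p-values measure the spread between these arrays only. In RNA from whole cultures, fewer cells that express a gene and less RNA per cell cannot be told apart.

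Cancer stem cell markers are genes or proteins used to pick out tumour cells that can found a new tumour. In breast cancer, aldehyde dehydrogenase activity, to which ALDH1A1 and ALDH1A3 contribute by oxidising retinal to retinoic acid, is read as one such mark. Surface proteins are another: PROM1 is CD133, CD24 is a small sialoglycoprotein whose low level together with high CD44 describes a stem-like breast phenotype, ITGA6 is the laminin-binding integrin alpha-6 and KIT is the stem cell factor receptor. BMI1, KLF4 and SOX2 act in the nucleus, BMI1 in polycomb repressive complex 1 and KLF4 and SOX2 as transcription factors used to reprogram cells to pluripotency. BET proteins bind acetylated histones at promoters and enhancers, and OTX015 occupies the pocket that makes this contact.

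The promoters of ALDH1A3, PROM1 and ALDH1A1, the genes on which the drug comparison in MDA-MB-468 turns, are shown. They are unlike in base composition, and in motif letters ALDH1A3 is unlike the others. Each is the 250 bases before the most upstream listed start, from RefSeq on GRCh38.p14, which adjoins the annotated gene, 5′ to 3′ on the gene's own strand: ALDH1A3 at chr15:100879581-100879830 on the plus strand, and PROM1 at chr4:16084024-16084273 and ALDH1A1 at chr9:72953054-72953303, both on the minus strand. Capitals mark matches, on either strand, to 5 short motifs: the TATA box (TATAAA), the CCAAT box (CCAAT), the GC box (GGGCGG), the E-box (CACGTG) and the KLF core (CACCC).
ALDH1A3: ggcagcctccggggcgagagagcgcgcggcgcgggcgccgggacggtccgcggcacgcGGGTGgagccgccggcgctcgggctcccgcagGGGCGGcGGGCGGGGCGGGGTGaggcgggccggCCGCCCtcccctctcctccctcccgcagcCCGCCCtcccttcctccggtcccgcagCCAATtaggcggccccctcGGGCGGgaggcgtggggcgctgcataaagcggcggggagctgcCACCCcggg
PROM1: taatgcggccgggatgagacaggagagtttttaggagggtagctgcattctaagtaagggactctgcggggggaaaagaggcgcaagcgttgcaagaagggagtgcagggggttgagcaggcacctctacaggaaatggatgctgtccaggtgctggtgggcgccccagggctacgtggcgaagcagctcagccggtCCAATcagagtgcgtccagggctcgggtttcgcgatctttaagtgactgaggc
ALDH1A1: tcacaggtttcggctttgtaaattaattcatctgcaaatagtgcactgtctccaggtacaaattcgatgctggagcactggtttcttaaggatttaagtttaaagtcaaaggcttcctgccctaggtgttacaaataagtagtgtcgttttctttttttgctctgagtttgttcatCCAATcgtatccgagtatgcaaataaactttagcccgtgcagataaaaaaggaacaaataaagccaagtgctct
The ALDH1A3 window is 82.4% G and C and holds 6 GC boxes, 3 KLF cores and 1 CCAAT box, with 2 of the GC boxes sharing a base with each other and 1 of these sharing one with a KLF core. PROM1 (58.8% G and C) holds 1 CCAAT box 53 bases before the start, and ALDH1A1 (38.4%) holds 1 CCAAT box 74 bases before it. No TATA box or E-box letters occur in these windows. Over the 35116 listed human promoters, windows of the same length hold the CCAAT letters in 32%, the GC box in 42.6%, the KLF core in 54.7%, the TATA letters in 10.7% and the E-box in 6.34%. A match is a run of letters and was not tested as a binding site. PROM1 has 4 listed starts, and the arrays do not say which was used.

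Mean array intensity spanned 316 to 409 for MDA-MB-231 arrays and 174 to 503 for MDA-MB-468 arrays, the lowest of which was the OTX015 array of 8 h. The lines carried some of their own marks. CDH1, which encodes E-cadherin, was below the signal floor on all 9 MDA-MB-231 arrays. VIM, which encodes vimentin, had a log2 signal of 13.44 ± 0.034 (SD, n = 9) there against 9.18 ± 0.37 (SD, n = 9) in MDA-MB-468. ZEB1 was above the floor on 9 and 0 arrays. The epithelial genes KRT8, KRT19, EPCAM and EGFR were lower in MDA-MB-231 but above the floor on all its arrays. KRT18 did not separate the lines (7.92 ± 0.18 against 8.00 ± 1.25, SD, n = 9 each), and the mesenchymal genes FN1 and SPARC were below the floor on all arrays. Among genes of other cell types, each read on its brightest probe, the leukocyte gene PTPRC was below the floor on all arrays. The others were not: PECAM1 was above it on 9 MDA-MB-231 and 2 MDA-MB-468 arrays, ACTA2 on 9 and 8, and COL1A1 on 1 and 6. Of the receptors whose absence defines triple-negative cells, PGR was below the floor throughout, ESR1 was above it on 3 of 9 MDA-MB-468 arrays and on no MDA-MB-231 array, and ERBB2 transcript was above it on all 18.

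As a signal floor, each array's 95th percentile over 457 olfactory receptor probes was taken, since breast cells should not express these genes, and a probe was tested if it lay above the floor on at least 3 of 18 arrays. This left 12 of the 17 marker probes, for 7 of the 9 genes, and 23631 of all probes. The other 5 stayed at background on all 18 arrays: both probes of KIT, both of SOX2 and 1 of 3 for ITGA6 (ILMN_1687974). KIT came nearest: on its highest array, the untreated MDA-MB-468 array of 8 h, the log2 signal of probe ILMN_2229379 minus the floor was -0.0026. On the highest array of each, this difference was -0.197 for KIT ILMN_1790160, -0.0798 and -0.165 for SOX2 ILMN_1770635 and ILMN_2177156, and -0.0858 for the ITGA6 probe. Both ALDH1A1 probes were below the floor on all 9 MDA-MB-231 arrays and above it on all 9 of MDA-MB-468. PROM1 was above it on 7 of 9 MDA-MB-231 arrays, by little, and on 9 of 9 in MDA-MB-468. ITGA6 probe ILMN_2267488 had the opposite pattern, with 9 of 9 in MDA-MB-231 and 4 of 9 in MDA-MB-468. ALDH1A3, CD24, BMI1, KLF4 and the third ITGA6 probe (ILMN_2359287) were above the floor on all 18 arrays. The plot of signal over the floor shows every probe on every array.

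**Figure D1:**
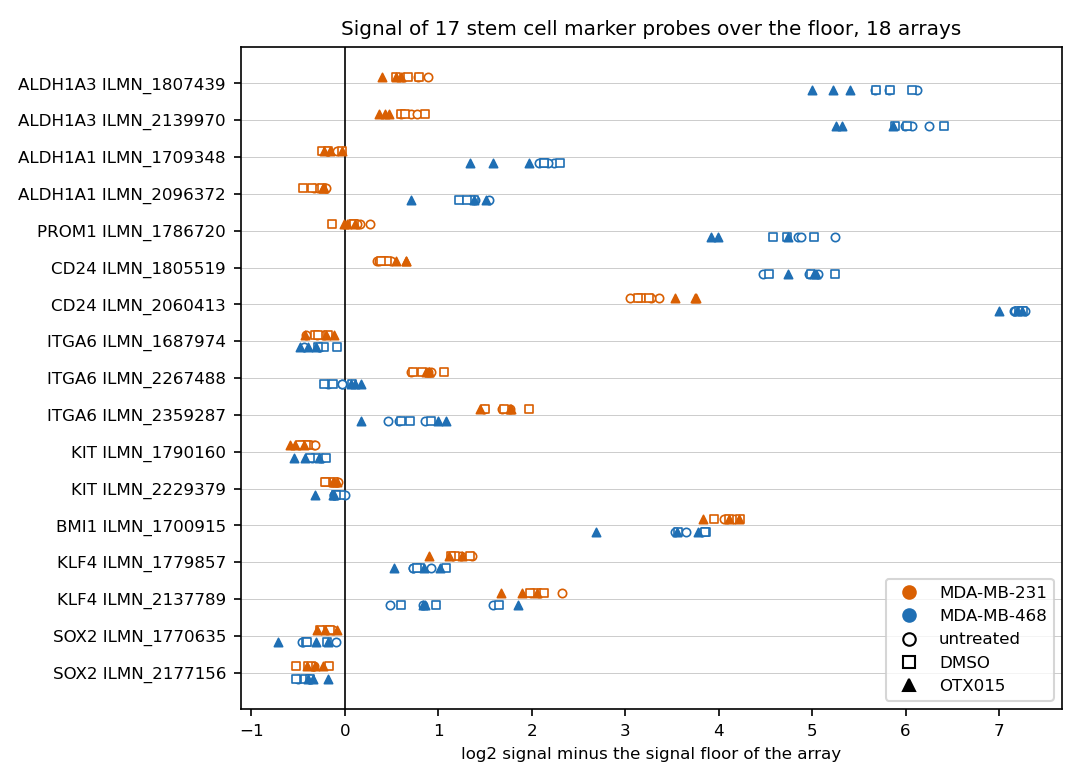
Log2 signal of each of the 17 marker probes minus the signal floor of the same array (horizontal axis), 1 point per array, orange for MDA-MB-231 and blue for MDA-MB-468, open circles for untreated, open squares for DMSO and filled triangles for OTX015. All points of KIT, SOX2 and ITGA6 ILMN_1687974 lie left of the black line at 0, and ALDH1A3, PROM1 and CD24 lie far further right in MDA-MB-468 than in MDA-MB-231.

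Without the drug, the 2 lines differed most in the 4 genes of the aldehyde dehydrogenase and CD133/CD24 group, all higher in MDA-MB-468, while ITGA6 and 1 KLF4 probe were lower there. In limma on the 12 untreated and DMSO arrays, with a call at an adjusted p of at most 0.05 (Benjamini-Hochberg over all tested probes) and a log2 difference of at least 0.5, 10 of the 12 tested probes passed, 7 higher and 3 lower in MDA-MB-468, where 33.6% of all tested probes passed (17% higher, 16.6% lower). The 7 higher include both ALDH1A1 probes, which met the filter only through MDA-MB-468, so their calls are not independent of that filter. Over the 10 probes above the floor in both lines the median difference was 1.79, against -0.031 for all tested probes. None of these 10 lay between -0.41 and 3.99.

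ALDH1A3 showed the widest gap. Its probe ILMN_2139970 had a log2 signal of 7.06 ± 0.078 (SD, n = 6 undrugged arrays) in MDA-MB-231 but 12.44 ± 0.18 (SD, n = 6) in MDA-MB-468, a log2 difference of 5.39 or 41.8-fold (standard error 0.074, adjusted p = 7.12e-15), and ILMN_1807439 differed by 5.13 (34.9-fold). PROM1 lay at 6.46 ± 0.11 (SD, n = 6), next to the floor, in MDA-MB-231 and at 11.22 ± 0.23 (SD, n = 6) in MDA-MB-468, a difference of 4.76 (standard error 0.092, adjusted p = 1.58e-13). CD24 differed by 3.99 on probe ILMN_2060413, from 9.57 ± 0.11 to 13.56 ± 0.041 (SD, n = 6 each), and by 4.45 on ILMN_1805519. ALDH1A1 was detected in MDA-MB-468 alone, at 8.52 ± 0.079 (SD, n = 6) on ILMN_1709348 and 7.71 ± 0.11 (SD, n = 6) on ILMN_2096372. Set against the dimmest signal that counts as detected on the MDA-MB-231 arrays, it was at least 4.46-fold higher in MDA-MB-468 by the first probe. By the second probe it was at least 2.55-fold higher. No p-value is given for these bounds, since limma compared values under the floor. For each probe of ALDH1A3, PROM1 and CD24, the lowest undrugged MDA-MB-468 array lay above the highest undrugged MDA-MB-231 array, as for 22.3% of all tested probes.

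The other markers ran the other way by smaller steps. ITGA6 had a difference of -1.02 on ILMN_2359287 (8.04 ± 0.17 against 7.02 ± 0.17, SD, n = 6 each, adjusted p = 5.12e-07) and of -0.96 on ILMN_2267488, which was above the floor on only 1 of the 6 undrugged MDA-MB-468 arrays. KLF4 had -1.09 on ILMN_2137789 (8.45 ± 0.11 against 7.36 ± 0.48, SD, n = 6 each, adjusted p = 3.75e-06). KLF4 ILMN_1779857 and BMI1 had differences of -0.42 and -0.41, with adjusted p = 3.99e-06 and 0.00012, and did not reach the minimum size for a call. The BMI1 probe may also read the COMMD3-BMI1 read-through transcript, and CD24 has near-identical pseudogene copies, so their signals were not assigned to 1 locus. The same 10 probes passed under each of the 7 processing alternatives and each left-out array or time.

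In MDA-MB-468, OTX015 lowered ALDH1A3 and PROM1 compared with DMSO. Of the 12 tested probes 3 passed, both of ALDH1A3 and that of PROM1, and all 3 were lower, where 4.38% of all tested probes passed (2% higher, 2.38% lower). No marker probe passed as higher. The median difference of the 12 was -0.042, against -0.012 for all tested probes.

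ALDH1A3 is the dehydrogenase that was high in this line. On probe ILMN_1807439 the untreated arrays read 12.47, 12.17 and 12.05 at 4, 8 and 24 h, the DMSO arrays 12.38, 12.17 and 12.01, and the OTX015 arrays 11.73, 11.68 and 11.36, all on the log2 scale. Every OTX015 array lay below every untreated and DMSO array, as for 7.01% of all tested probes. The mean fell from 12.19 ± 0.18 with DMSO to 11.59 ± 0.20 with OTX015 (SD, n = 3 each), a log2 difference of -0.59 or 1.51-fold (standard error 0.089, adjusted p = 0.0134, limma). Probe ILMN_2139970 read 12.59, 12.33 and 12.44 untreated, 12.72, 12.35 and 12.22 with DMSO and 12.19, 11.78 and 11.62 with OTX015, again with no overlap, and its difference was -0.57 (standard error 0.10, adjusted p = 0.0248). Signal was still far above the floor on all 9 arrays.

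PROM1 encodes a pentaspan membrane protein of cell protrusions. Its signal was 11.59, 11.18 and 11.25 untreated, 11.33, 11.07 and 10.92 with DMSO and 11.06, 10.45 and 10.28 with OTX015 at 4, 8 and 24 h. Each OTX015 array was the lowest of its time point, but the 4 h OTX015 array lay above the DMSO array of 24 h, so the groups overlapped. The mean fell from 11.10 ± 0.21 to 10.60 ± 0.41 (SD, n = 3 each), a difference of -0.51 (standard error 0.11, adjusted p = 0.0425).

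These 3 calls stood close to the threshold. All 3 probes lost the call under median scaling, cyclic loess, a fit without the time term and a fit of the OTX015 and DMSO arrays alone, PROM1 also without background correction (-0.50, under the minimum size), both ALDH1A3 probes without the arrays of any 1 time (adjusted p = 0.0594 to 0.256) and PROM1 without those of 8 or 24 h (adjusted p = 0.329 and 0.165). Without any 1 DMSO array all 3 probes lost it (adjusted p = 0.0896 to 0.227), as did ILMN_2139970 without the 8 h untreated array or an OTX015 array from 8 or 24 h and PROM1 without these or the 4 h untreated array, while the difference stayed negative in every fit.

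ALDH1A1, the second retinal dehydrogenase, gave a split result. Probe ILMN_1709348 read 8.58, 8.41 and 8.56 untreated, 8.62, 8.47 and 8.46 with DMSO and 8.29, 8.04 and 7.70 with OTX015, so that all OTX015 arrays were below all others, as for 7.01% of all tested probes. Its difference of -0.50 (standard error 0.12) had an adjusted p of 0.0572 and did not pass. Probe ILMN_2096372 read 7.89, 7.71 and 7.77 untreated, 7.69, 7.56 and 7.64 with DMSO and 7.71, 7.97 and 7.07 with OTX015. Here the OTX015 arrays were both the highest and the lowest of the 9, and the difference was -0.047 (standard error 0.18, adjusted p = 0.92). At 4, 8 and 24 h, the first probe had -0.32, -0.42 and -0.76 against the DMSO array and the second 0.017, 0.41 and -0.57. The 8 h OTX015 array had the lowest mean intensity of all 18, 174. Without that array the second probe had -0.28 (adjusted p = 0.387), and without the OTX015 array from 24 h it had 0.21 (adjusted p = 0.382), so that single arrays set its sign.

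The remaining markers did not pass in MDA-MB-468. CD24 ILMN_2060413, the brighter of its probes, stayed between 13.45 and 13.62 on all 9 arrays, with a difference of -0.037 (standard error 0.083). CD24 ILMN_1805519 read 10.82, 11.40 and 11.34 untreated, 10.85, 11.58 and 11.32 with DMSO and 11.36, 11.48 and 11.10 with OTX015, and its difference was 0.067 (standard error 0.16). BMI1 read 10.17, 9.99 and 9.91 untreated, 10.17, 9.90 and 10.19 with DMSO and 9.88, 9.15 and 10.13 with OTX015, with only the 8 h array far from the rest (difference -0.37, standard error 0.18, adjusted p = 0.292). KLF4 had 0.16 (standard error 0.093) on ILMN_2137789 and -0.034 (standard error 0.11) on ILMN_1779857. ITGA6 had 0.065 (standard error 0.13) on ILMN_2359287. On ILMN_2267488 it had 0.26 (standard error 0.097, adjusted p = 0.166), and there the OTX015 arrays, at 6.50, 6.57 and 6.43, lay above the 6 undrugged arrays, as for 5.68% of all tested probes, and close to the floor.

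**Figure D2:**
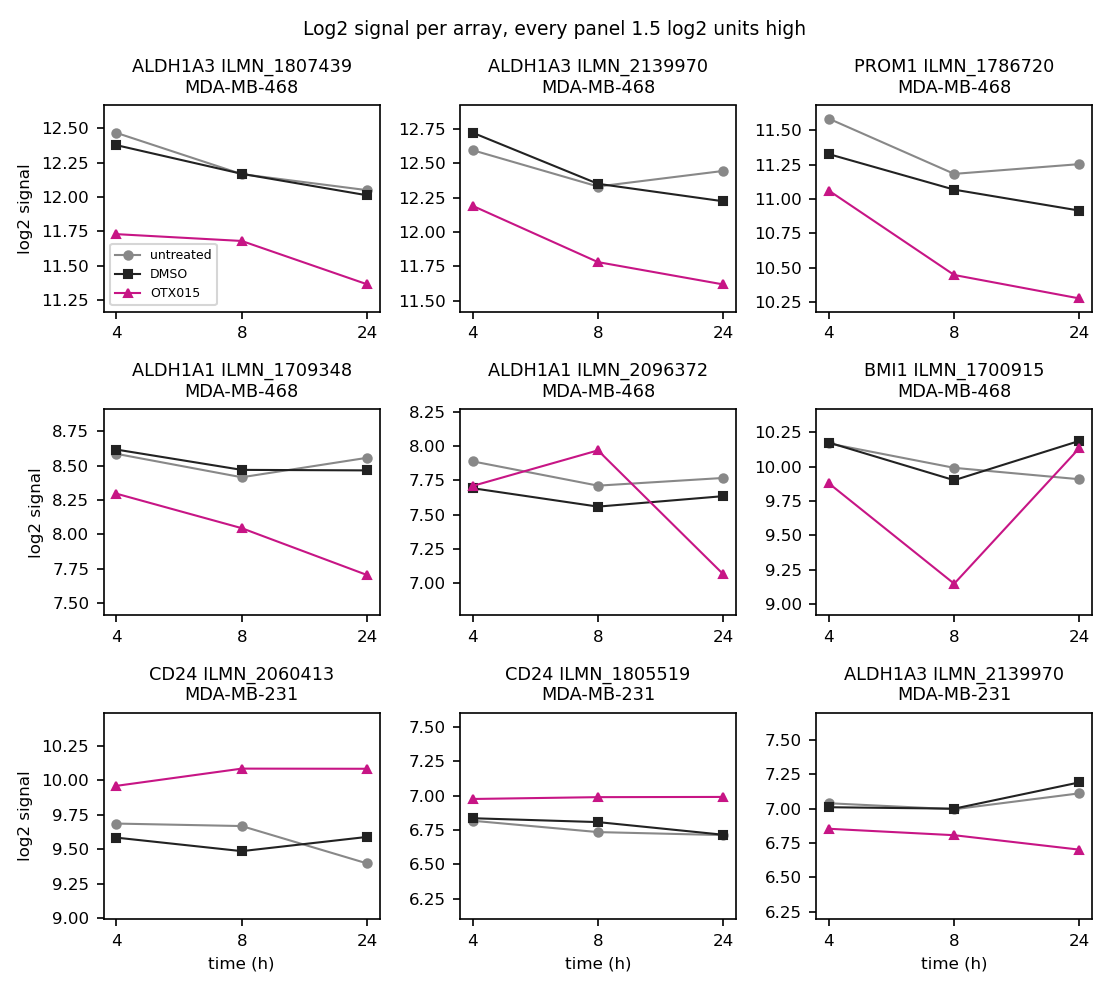
Log2 signal (vertical axis) against time (4, 8 and 24 h, evenly spaced) on single arrays for 9 combinations of probe and cell line, grey circles for untreated, black squares for DMSO and magenta triangles for OTX015; every panel spans the same number of log2 units. The OTX015 lines of both ALDH1A3 probes and of ALDH1A1 ILMN_1709348 in MDA-MB-468 run below both controls, those of both CD24 probes in MDA-MB-231 run above them, and BMI1 is lowest with OTX015 at 8 h.

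In MDA-MB-231, none of the 12 tested probes passed, where 0.427% of all tested probes did. With limma, 5 of the 12 had an unadjusted p under 0.05, as did 3673 of all 23631 tested probes, and 2 of the 12, those of ALDH1A1, were below the floor in this line and have no fold. The median difference of the other 10 was -0.054, against -0.0023 for all tested probes.

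CD24 came closest to a call. Probe ILMN_2060413 read 9.69, 9.67 and 9.40 untreated, 9.58, 9.49 and 9.59 with DMSO and 9.96, 10.09 and 10.09 with OTX015. All 3 OTX015 arrays lay above all 6 others, as for 3.57% of all tested probes. Its difference of 0.49 (1.41-fold, standard error 0.086, adjusted p = 0.00571) passed the p threshold and missed the minimum of 0.5. It was over 0.5 with cyclic loess (0.53, adjusted p = 0.00515) and without the 4 h arrays (0.55, adjusted p = 0.00668), the 4 h OTX015 array (0.57) or the 4 or 24 h DMSO array (0.50 and 0.55). Probe ILMN_1805519, much nearer the floor, read 6.82, 6.74 and 6.71 untreated, 6.84, 6.81 and 6.72 with DMSO and 6.98, 6.99 and 6.99 with OTX015, also without overlap, and had a difference of 0.20 (standard error 0.071, adjusted p = 0.163).

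ALDH1A3 was low in this line and had small negative differences. Probe ILMN_2139970 read 7.04, 7.00 and 7.11 untreated, 7.01, 7.00 and 7.19 with DMSO and 6.85, 6.81 and 6.70 with OTX015, so that the OTX015 arrays lay below the other 6, as for 4.04% of all tested probes. The difference was -0.28 (standard error 0.078, adjusted p = 0.07), and on ILMN_1807439 it was -0.16 (standard error 0.074, adjusted p = 0.319). PROM1, next to the floor, had 0.024 (standard error 0.076). KLF4 had -0.18 and -0.13 on its 2 probes, BMI1 -0.048, and ITGA6 -0.059 on ILMN_2359287 and 0.017 on ILMN_2267488, with adjusted p = 0.28 or more. DMSO against untreated gave 0 called marker probes in either line, as it gave 0 of all tested probes, and no marker had an unadjusted p under 0.05 in that comparison, where 648 of all tested probes had one in MDA-MB-231 as did 98 in MDA-MB-468.

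**Figure D3:**
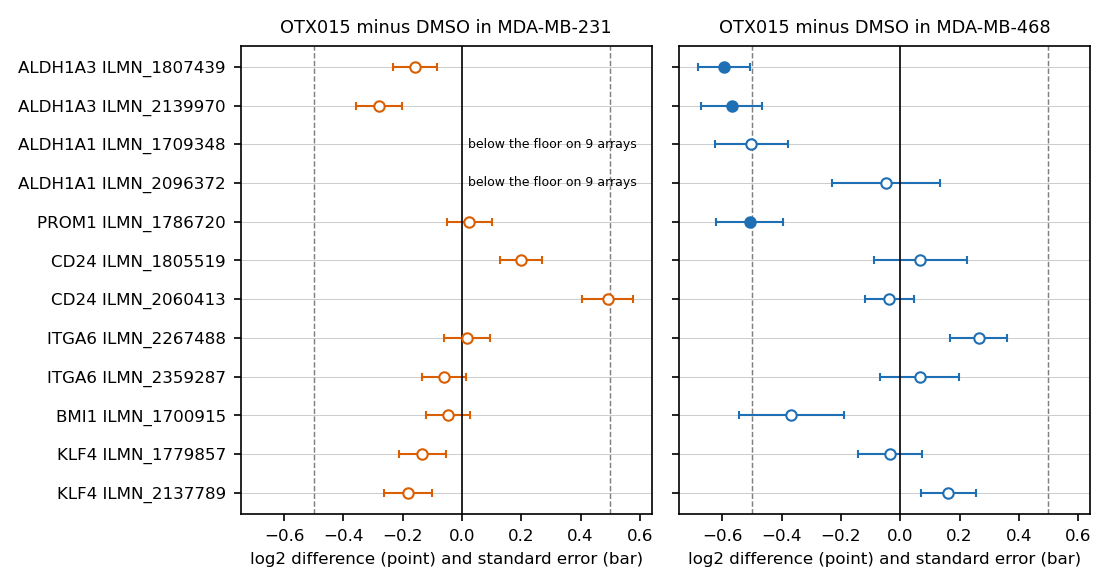
Log2 difference of OTX015 from DMSO (points, with the standard error as a bar) for the 12 tested probes in each line, filled where the probe passed both thresholds; dashed lines mark -0.5 and 0.5. The 3 filled points, ALDH1A3 on both probes and PROM1, are in MDA-MB-468, and CD24 ILMN_2060413 in MDA-MB-231 sits at 0.49.

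The difference between the lines in the response to OTX015 was tested in 1 fit of all 18 arrays. Of the 12 probes 1 passed, CD24 ILMN_2060413, where 1.9% of all tested probes passed: its response was lower in MDA-MB-468 than in MDA-MB-231 by 0.53 (standard error 0.12, adjusted p = 0.0443). Its 0.49 in MDA-MB-231 stood against -0.037 in MDA-MB-468, where its signal was already 15.9-fold higher. The call was kept in 4 of 21 fits that left out 1 array or 1 time and in 6 of 10 processing alternatives. The genes called in MDA-MB-468 alone did not pass this test: PROM1 had -0.53 (standard error 0.13, adjusted p = 0.0619), ALDH1A3 -0.44 and -0.29 (adjusted p = 0.0598 and 0.313). The doses differed between the lines, and dose and line cannot be told apart.

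The response at single times was the OTX015 array minus the average of the 2 undrugged arrays of the same time, with the lone OTX015 array assumed to vary like the pairs of undrugged arrays. In MDA-MB-468, 2 of 12 marker probes passed at 4 h, 3 at 8 h and 5 at 24 h, where 14.6%, 14.3% and 12.1% of all tested probes did. The count at 4 h was thus near the background and that at 8 h little above it. ALDH1A3 passed at every time on at least 1 probe: -0.69 on ILMN_1807439 at 4 h (standard error 0.098, adjusted p = 0.000159), -0.56 on ILMN_2139970 at 8 h, and -0.67 and -0.72 at 24 h. The 4 h call was lost with cyclic loess (-0.34, adjusted p = 0.0427) and both 24 h calls with median scaling (-0.39 and -0.46, adjusted p = 0.13 and 0.0811). PROM1 had -0.39 at 4 h, which did not pass, -0.68 at 8 h and -0.81 at 24 h (standard error 0.16, adjusted p = 0.00562 and 0.00219 at the later times), the last lost with median scaling (-0.57, adjusted p = 0.0659). Both probes of ALDH1A1 passed at 24 h, the first with -0.81 (standard error 0.093, adjusted p = 3.8e-05), the second with -0.63 (standard error 0.11, adjusted p = 0.00124), and neither did earlier. The second probe had -0.081 at 4 h and 0.33 at 8 h. With the deposited log2 values it lost its 24 h call (-0.48, under the minimum size). For PROM1 the DMSO array was below the untreated array at each time. Against the DMSO array alone, PROM1 had -0.27, -0.62 and -0.64 at 4, 8 and 24 h.

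BMI1, a member of polycomb repressive complex 1, passed at 8 h alone, with -0.80 (standard error 0.11), between -0.29 at 4 h and 0.088 at 24 h. That value rests on the OTX015 array with the lowest mean intensity; across 7 processing alternatives it ran from -1.52 to -0.73 and passed in each. CD24 ILMN_1805519 passed at 4 h with 0.53 (standard error 0.099, adjusted p = 0.00131) while its other probe had -0.011, and with median scaling it had 0.27 (adjusted p = 0.178). In MDA-MB-231, no marker passed at 4 or 8 h and 1 passed at 24 h, where 0.262%, 0.669% and 0.851% of all tested probes passed: CD24 ILMN_2060413, which had 0.33, 0.51 and 0.59 at 4, 8 and 24 h (standard error 0.11, adjusted p = 0.338, 0.0577 and 0.0229). This 24 h call was lost under median scaling and without the untreated array of 24 h (0.50, adjusted p = 0.189). Between 4 and 24 h without drug, no marker passed in MDA-MB-231 (0.741% of all tested probes) and 1 of 12 did in MDA-MB-468 (13.2%), KLF4 ILMN_2137789, which fell by 1.04 (standard error 0.086, adjusted p = 7.23e-07). Its 3 arrays of 4 h read 7.93, 7.96 and 8.18 and those of 24 h 6.87, 6.94 and 7.22, whatever the treatment, and KLF4 ILMN_1779857 had -0.22.

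**Figure D4:**
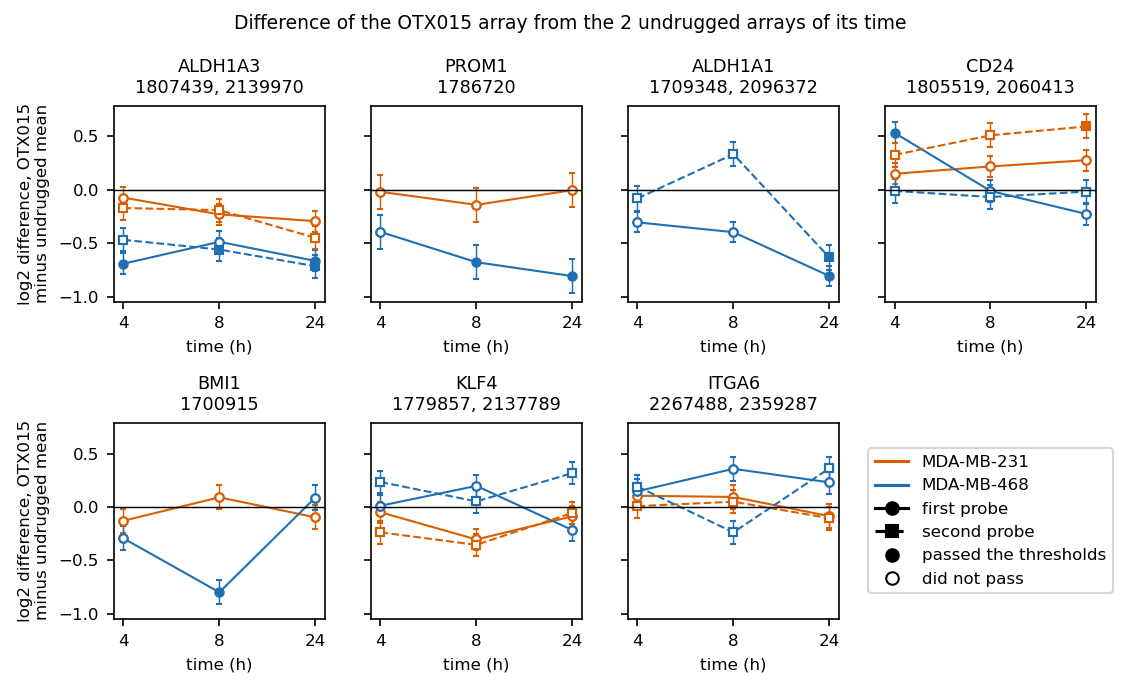
Log2 difference of the OTX015 array from the average of both undrugged arrays at 4, 8 and 24 h (evenly spaced) for the 7 genes with tested probes, with the standard error as a bar, orange for MDA-MB-231 and blue for MDA-MB-468, solid for the first and dashed for the second probe named above each panel; filled symbols passed both thresholds, and ALDH1A1 is not drawn for MDA-MB-231, where it was below the floor. PROM1 and ALDH1A1 ILMN_1709348 move down with time in MDA-MB-468, reaching -0.81 at 24 h, and CD24 ILMN_2060413 moves up in MDA-MB-231 to 0.59.

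CD44 and EPCAM, which are read together with these markers in breast cancer, gave no call between OTX015 and DMSO. CD44, a hyaluronan receptor, has 3 tested probes: in MDA-MB-468 they had -0.61 (ILMN_1803429, adjusted p = 0.0568), -0.58 and -0.22, and in MDA-MB-231 0.027, -0.080 and -0.074. At 8 h in MDA-MB-468 the first passed against the undrugged arrays, with -0.65 (adjusted p = 0.000501, limma). At 24 h there the first 2 passed, with -1.04 and -1.17 (standard errors 0.10 and 0.11, adjusted p = 1.2e-05 and 8.63e-06). Without drug, the second also fell between 4 and 24 h there (-0.53, adjusted p = 0.000639, limma), and the first had -0.33, which did not pass. EPCAM, an epithelial adhesion protein, ran between -0.29 and -0.15 on its 3 probes in MDA-MB-231 and between 0.078 and 0.22 in MDA-MB-468, with adjusted p = 0.114 or more. Genes whose profile over the 9 MDA-MB-468 arrays lay nearest that of a called marker, by root mean square distance after centring, were TIMM21, COIL and UBE2Q1 for ALDH1A3 ILMN_1807439 (0.0524, 0.0766 and 0.0831 log2 units), AK4, CMAHP and STOML2 for ALDH1A3 ILMN_2139970 (0.0569, 0.0652 and 0.0721), and CD44, S100A3 and NTN4 for PROM1 (0.0907, 0.108 and 0.109). The 2 ALDH1A3 probes thus shared none of their 3 nearest genes. Probes of the marker's own gene were left out of this search and no background distance was computed, so nearness was not tested.

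Around the aldehyde dehydrogenases, 3 of 15 measured genes of retinoic acid synthesis and response were lower with OTX015 than with DMSO in MDA-MB-468, none was higher and 12 did not pass, with a median probe difference of -0.23 over the list against -0.012 for all tested probes. Counted by gene, as for all lists here, 3.58% of all 12920 tested genes were lower and 2.86% higher in this comparison, and 0.604% passed in MDA-MB-231. DHRS3, a retinaldehyde reductase that lowers retinoic acid, fell by 1.30 (standard error 0.14, adjusted p = 0.00458), from 9.78 ± 0.12 to 8.48 ± 0.49 (SD, n = 3 each). RXRA, the retinoid X receptor that pairs with retinoic acid receptors, fell by 0.74 (adjusted p = 0.0322) and CYP26B1, which degrades retinoic acid, by 0.61 (standard error 0.089, adjusted p = 0.0124). In MDA-MB-231 none of the 15 passed. Of 15 other aldehyde dehydrogenases, 1 was lower in MDA-MB-468, ALDH3B2 (-0.87, adjusted p = 0.0182 on 1 of 3 probes), and the list median was 0.11.

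Around the nuclear factors, 2 of 13 further polycomb complex 1 genes were lower in MDA-MB-468 and none higher: CBX7, a chromodomain subunit (-0.77, adjusted p = 0.024), and PCGF6, a ring finger relative of BMI1 (-0.76, adjusted p = 0.0157 on 1 of 3 probes). Of 12 other pluripotency factors on the array, 5 met the filter, and none of the 5 passed for OTX015 against DMSO in either line. None of 9 other KLF genes passed there. At single times in MDA-MB-468, 3, 1 and 0 of the 5 factors passed at 4, 8 and 24 h. Of the 9 KLF genes, 4, 2 and 0 did, where 19.3%, 20% and 16.6% of all tested genes passed. Of 9 other SOX genes, SOX11, below the floor in MDA-MB-231, rose in MDA-MB-468 by 0.92 (adjusted p = 0.0237). SOX21, below the floor in MDA-MB-468, fell from 7.52 ± 0.066 to 6.91 ± 0.16 (SD, n = 3 each) in MDA-MB-231 (difference -0.61, standard error 0.086, adjusted p = 0.00104). Around the surface markers, LAMB3 fell by 0.52 in MDA-MB-468 (adjusted p = 0.0442) on 1 of 3 probes, among 9 integrin partners and laminins. Of 11 genes of KIT signalling, GRB2 rose there by 0.67 on 1 of 2 probes and PIK3R1 fell by 0.69 on 1 of 3 (adjusted p = 0.0224 and 0.0441). Of 14 other breast cancer stem cell markers, BCL11A, a mammary stem cell transcription factor, fell by 0.73 and 0.83 on its 2 probes in MDA-MB-468 (adjusted p = 0.0258 and 0.018) and had 0.32 (adjusted p = 0.0334) and 0.086 in MDA-MB-231, and its response differed between the lines by -1.05 and -0.92 (adjusted p = 0.00477 and 0.0111).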

How the data were processed

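Illumina HumanHT-12 v4 BeadChips, 18 arrays of 47231 probes, measured RNA of both lines. The authors deposited mean bead intensity values per probe from GenomeStudio (version not given in the sources used here), without normalization between arrays, and log2 values that they normalized between arrays. The deposited log2 values lay a median of 0.00533 from the log2 of quantile-normalized intensities.

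Background correction was by normexp (limma 3.58.1, R 4.3.3) without control probes and with an offset of 50, followed by quantile normalization and log2. Probes were named by gene identifier through RefSeq, and 30113 of 47231 had 1 symbol. Per line, limma compared OTX015 and DMSO on 9 arrays, time added as a term (4 residual degrees of freedom). Both lines together took 18 arrays and left 8. The base of the minimum fold is not given in the sources used here and was taken as 2. The fits were tested on simulated data. A fold against a line below the floor used the higher of the dimmest detected signal and the probe's own value. Every marker probe is named, with up to 3 called genes of each list with the widest change, CD44 and EPCAM, CDH1 and VIM as checks of the lines, and the 3 genes nearest each called marker probe. The markers, lists and tests were chosen with earlier results of these data known. Alternatives varied the background correction, normalization, filter, moderation, time term, control and arrays. Plots used matplotlib 3.10.9. The number of arrays limits the precision.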

Additional observations from a re-analysis of the deposited data

Results flagged for a closer look

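CD24 probe ILMN_2060413 stood out because its response to OTX015 differed between the lines, by -0.53 (standard error 0.12, adjusted p = 0.0443, limma, MDA-MB-468 minus MDA-MB-231). The difference was negative in all 31 further fits, and 4 of the 21 that left out 1 array or 1 time kept the call. Of 10 processing alternatives, 4 lost it: median scaling (-0.86, adjusted p = 0.192), cyclic loess (-0.47, adjusted p = 0.23), no time term (adjusted p = 0.0794) and the OTX015 and DMSO arrays alone (adjusted p = 0.112). The second CD24 probe had -0.13 (adjusted p = 0.795). In the search for single arrays far from the others of their group, none stood out in 20 groups of 6 undrugged arrays, a search that chance alone answers positively in about 1 group of 20.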

How the results depend on the processing

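Numbers of called marker probes moved most with the normalization. Under median scaling, the median difference over the tested probes was -0.12 for OTX015 against DMSO in MDA-MB-468. It was -0.15 and -0.32 at 4 and 8 h there and -0.34 between 4 and 24 h without drug. This scaling gave 0 called marker probes in place of 3 for OTX015 against DMSO in MDA-MB-468. There ALDH1A3 had -0.81 and -0.80 and PROM1 -0.79 (adjusted p = 0.173, 0.202 and 0.198, limma). In that line it gave 4, 7 and 2 in place of 2, 3 and 5 at 4, 8 and 24 h. Between 4 and 24 h without drug there it gave 9 in place of 1, and at 24 h in MDA-MB-231 0 in place of 1. Cyclic loess gave 1 in MDA-MB-468 (ALDH1A1, -0.56, adjusted p = 0.0311), 1 in place of 0 in MDA-MB-231 (CD24), 0 in place of 1 between the lines, 1 and 5 at 4 and 8 h and 3 between 4 and 24 h in MDA-MB-468, and 2 at 24 h in MDA-MB-231. Without a time term, and with the OTX015 and DMSO arrays alone, MDA-MB-468 and the difference between the lines each had 0. With untreated and DMSO arrays as control the difference between the lines had 3, and 2 with no background correction or with the deposited log2 values. Without the filter, or with trend and robust moderation, MDA-MB-231 had 1 in place of 0 at 8 h. Leaving out 1 array or 1 time gave 0 to 1 in MDA-MB-231, 0 to 4 in MDA-MB-468, 0 to 3 between the lines, 0 to 1 at 8 h and at 24 h in MDA-MB-231, and 1 to 2 between 4 and 24 h in MDA-MB-468. The cause was not tested. No direction of a called value reversed. Of 1453 recomputed probe values 68 lost a call, 18 gained one and 1367 were as in the main fit, which includes values called in neither. The 2 ALDH1A3 calls against DMSO in MDA-MB-468 were each kept in 6 of 10 processing alternatives. In 12 fits that left out arrays ILMN_1807439 kept its call in 6 and ILMN_2139970 in 3. PROM1 kept its call in 5 of 10 alternatives and 3 of 12 such fits.

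Over all probes the 1034 calls in MDA-MB-468 became 0 with median scaling, 353 without the time term, 234 with the OTX015 and DMSO arrays alone and 1569 with the pooled control. The 101 calls in MDA-MB-231 became 64 without background correction and 52 with the deposited log2 values. Under median scaling the calls higher and lower were 67 and 11 against 58 and 43 in MDA-MB-231, 6 and 137 against 189 and 259 between the lines, 4466 lower and 1328 higher against 1572 and 1871 at 4 h in MDA-MB-468, 67 higher and 7982 lower against 1495 and 1873 at 8 h, 1398 and 740 against 1428 and 1441 at 24 h, and 1219 and 9368 against 1925 and 1202 between 4 and 24 h without drug. The BeadChip as a block was not run, because the sources used here do not tie arrays to chips. Arrays of 1 line and time were paired through the time term, and the fit without it gives the unpaired values. Signals at the floor, of KIT, SOX2 and ALDH1A1 in MDA-MB-231, give no measure of change.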
